A study of Pyrus x bretschneideri with 2 samples.

Results

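The genes described here are 9 pear genes that the deposited annotation names as receptor-like kinases, receptor-like proteins or a disease resistance protein, out of 45022 genes in the expression table. They were taken by identifier from the 381 genes that the authors list as different between their libraries, so the values of that contrast chose them and are given as a description. RNA came from wounded pears (Pyrus x bretschneideri), from the flesh beside each wound. In 1 group the wounds had received Meyerozyma guilliermondii, a yeast studied for the biological control of fruit decay. The wounds of the other group had received sterile distilled water as the control, and both groups stayed at 20 °C for 3 days. There was 1 library per group, called the yeast library and the water library below, and the labels do not say how many fruit went into either. No difference below therefore has a replicate check, and an authors' p-value compares these libraries and not the treatments.

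Receptor-like kinases are the main surface sensors of plant cells. An outer part, the ectodomain, binds a ligand such as a fragment of a microbe, a piece of cell wall or a peptide, a single helix crosses the membrane, and a kinase on the inside passes the signal on. Receptor-like proteins have an ectodomain but no kinase and work through partner kinases. Inside the cell, resistance proteins with a nucleotide-binding domain and leucine-rich repeats sense microbial effectors. In plants these families are best known from defence against microbes, and they also act in growth and in the monitoring of the cell wall.

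Of the 9 genes, 5 were higher and 4 lower in the yeast library in the authors' deposited table, beside 0.318% of all 45022 genes called higher and 0.529% called lower. Since the genes were picked from those calls, nothing is read from the share. The genes with an annotated kinase domain were 1 higher and 3 lower, beside 143 higher and 238 lower of all 381 called genes. Of those without one, both receptor-like protein genes, the RPM1-like gene and Pbr000076 were higher. The wall-associated type gene Pbr011041 was lower. Pbr000076, Pbr011041 and the receptor-like protein gene XLOC_004778 each have a kinase among their protein hits. The split is therefore by annotated domain and not by class of protein. The largest levels were 18.9 FPKM for Pbr000076 in the yeast library and 21.4 FPKM for the kinase gene Pbr017074 in the water library. FPKM is the number of fragments scaled to gene length and library size, so levels can be set beside each other between genes. At least 1 FPKM in either library was reached by 4 of the 9 genes, and the other 5 stayed below it in both.

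**Figure D1:**
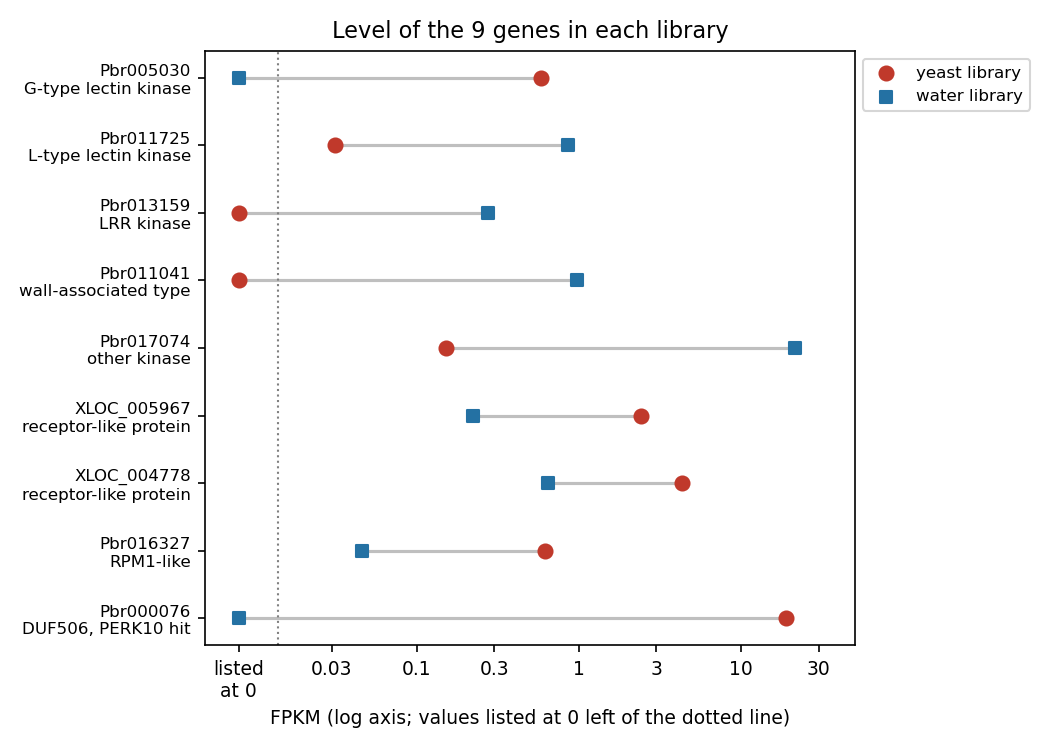
Level of each of the 9 genes in FPKM on a log axis, with circles for the yeast library, squares for the water library and values listed at 0 left of the dotted line. Circles lie right of squares for 5 genes and left of them for 4, and 4 genes are listed at 0 in 1 library.

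The annotation did not place all 9 among receptors. A protein kinase domain was among the Pfam domains (protein families recognised by sequence) of 4 genes, and leucine-rich repeats were among those of 3. The gene Pbr000076 has PERK10 of Arabidopsis as its Swiss-Prot hit, a proline-rich extensin-like receptor kinase, but its only Pfam domain is DUF506, a family of unknown function, and it has no kinase domain. It is called the DUF506 gene below. The gene Pbr016327 is described as RPM1-like, an intracellular resistance protein with no ectodomain. Gene ontology terms were missing for 3 of the 9, the term for ATP binding was given to the same number of genes as have a kinase domain, 4, and no gene had a KEGG entry.

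The depth behind these levels was read from the authors' deposited log2 fold changes. Among called genes listed at 0 FPKM in the yeast library with a log2 value beyond 7.5 in size, 64 of 65 lay on equal steps of the linear ratio, as did 21 of 22 genes listed at 0 in the water library with a value above 7.5. Each step was taken as 1 read, and the values then carry an offset of 0.128 reads in the water library and 0.122 reads in the yeast library. A deposited log2 value of a gene with 0 reads in 1 library is finite only through this offset and is neither a measured fold nor a bound. On the same scale the values of the other called genes can be searched for the smallest pair of whole reads that gives them. All 9 genes gave such a pair with at most 20 reads in the lower library, and the number solved for lay within 3.45e-06 of a whole number. The reads given below are these implied counts and not a deposited column. Their exact 95% Poisson intervals cover counting error only, not the spread between fruit. The scale put the water library at 1.05 times the size of the yeast library, and the folds below are corrected for it.

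**Figure D2:**
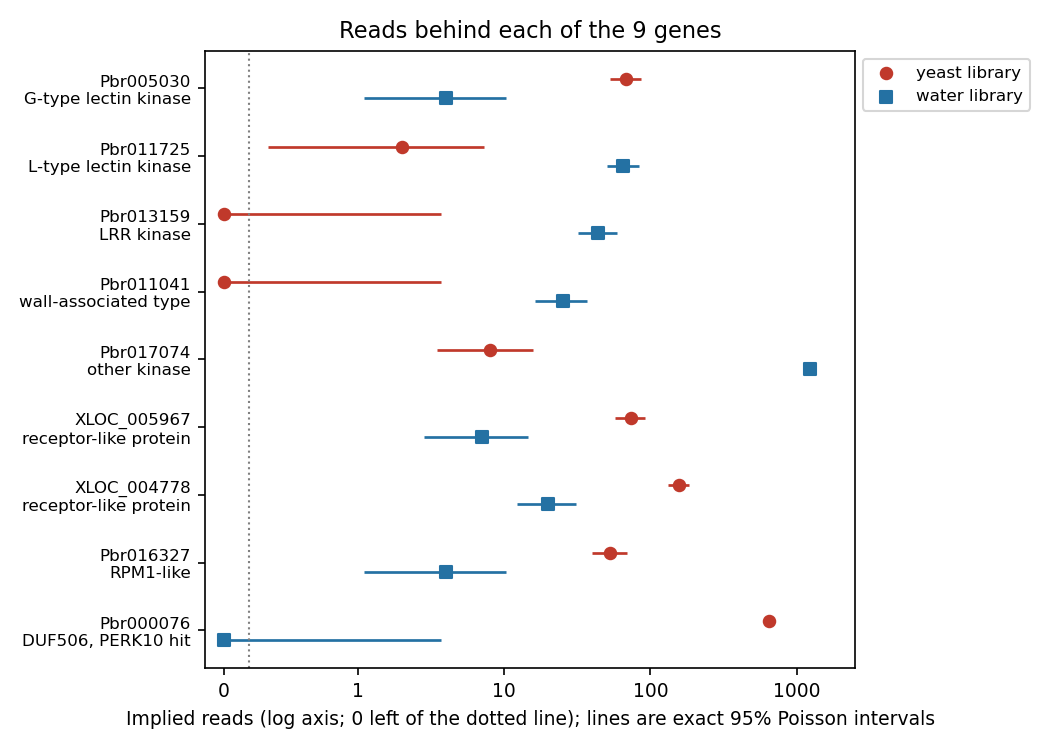
Implied reads of each of the 9 genes on a log axis, with circles for the yeast library, squares for the water library, lines for the exact 95% Poisson intervals and 0 left of the dotted line. The intervals of the libraries do not overlap for any of the 9 genes, which were chosen for that difference. In the library with more reads the counts run from 25 for Pbr011041 to 1244 for Pbr017074.

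The lectin receptor kinases are grouped by the fold of the sugar-binding domain outside the cell. G-type genes carry a mannose-binding lectin domain related to that of snowdrop, with an S-locus glycoprotein and a PAN domain. Pbr005030, whose Swiss-Prot hit is the G-type kinase At4g27290, has all 3 of these domains and a kinase domain. It stood at 0.585 FPKM in the yeast library and was listed at 0 in the water library. It had 68 implied reads in the yeast library (interval 52.8 to 86.2) and 4 in the water library (1.09 to 10.2). The gene thus had reads in the library where the FPKM table lists it at 0. By reads it was 17.8-fold higher in the yeast library, with a counting interval of 6.63 to 67.1, and it was the only one of the 4 kinase-domain genes on the higher side.

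L-type genes carry a legume lectin domain in that place, and Arabidopsis members of the class sense extracellular nucleotides. Pbr011725, described as L-type lectin-domain containing receptor kinase S.5, had 0.0315 FPKM in the yeast library and 0.859 FPKM in the water library. It had 2 implied reads in the yeast library (0.242 to 7.22) and 65 in the water library (50.2 to 82.8). By reads it was 31.1-fold lower in the yeast library, with a counting interval of 8.27 to 262 that is wide because of the 2 reads. The 2 lectin kinases of the 9 thus lay on opposite sides, both at under 1 FPKM.

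Kinases with leucine-rich repeats form the largest class of plant receptor kinases and bind peptides, steroids or microbial proteins. Pbr013159, with At1g06840 of Arabidopsis as its hit, carries a leucine-rich repeat ectodomain and a kinase domain. It was listed at 0 in the yeast library and at 0.275 FPKM in the water library. No read was implied in the yeast library (0, with an upper bound of 3.69), and 44 in the water library (32.0 to 59.1). Against a floor of 3 reads in the yeast library it was 14.0-fold lower there, a value that leaves out counting error and is no bound. Its level was low although its reads were not few, since 1 FPKM of this gene in the water library corresponded to 160 reads, the most of the 7 genes of the 9 for which that ratio could be formed in that library.

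Pbr011041 carries the galacturonan-binding and C-terminal domains of wall-associated kinases, which contact pectin in the cell wall, but no kinase domain in its Pfam entries. Its best hit, the At1g18390 type of kinase, is itself marked as partial. It was listed at 0 in the yeast library and at 0.969 FPKM in the water library. It had 0 implied reads (upper bound 3.69) in the yeast library and 25 (16.2 to 36.9) in the water library. No other of the 9 genes had so few reads in the library where it was higher. It was 7.97-fold lower in the yeast library against the floor of 3 reads, again with counting error left out and no bound. Here 1 FPKM corresponded to only 25.8 reads in the water library, the least of those 7 genes. FPKM divides by gene length, so fewer reads per FPKM go with a shorter gene model.

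Pbr017074, described as a probable receptor-like protein kinase of the At1g11050 type, has a kinase domain and no ectodomain of a named class in its annotation. It stood at 0.151 FPKM in the yeast library and at 21.4 FPKM in the water library. In the water library this level lay above that of 87.4% of all genes, and in the yeast library above 42.1%, a share that includes the genes listed at 0. In reads this was 8 (3.45 to 15.8) in the yeast library and 1244 (1176 to 1315) in the water library. By reads the gene was 149-fold lower in the yeast library, with a counting interval of 75.3 to 345. The authors' deposited log2 fold change was -7.20, with an adjusted p of 1.43e-11 in their table. The protein that gave the hit is marked as a low-quality model. Whether the annotated gene itself is whole was not checked.

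The receptor-like protein pair consists of assembled loci outside the Pbr gene set. XLOC_005967 is described as receptor-like protein 2, related in Arabidopsis to CLAVATA2, and its Pfam domains are leucine-rich repeats only. It had 2.41 FPKM in the yeast library and 0.222 FPKM in the water library. There were 73 implied reads (57.2 to 91.8) in the yeast library and 7 (2.81 to 14.4) in the water library, a 10.9-fold higher number in the yeast library (5.03 to 28.1).

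XLOC_004778 carries the same name from apple, while its Swiss-Prot hit is the tyrosine-sulfated glycopeptide receptor PSYR1, a leucine-rich repeat kinase of Arabidopsis. It has no Pfam domain, so neither the repeats nor a kinase are shown for the locus itself. It had 4.33 FPKM in the yeast library and 0.647 FPKM in the water library. The locus had 156 implied reads (132 to 182) in the yeast library and 20 (12.2 to 30.9) in the water library, 8.15-fold higher in the yeast library (5.10 to 13.7). The intervals of the fold overlap for the pair, so the pair was not separated beyond counting error. XLOC_004778 had the adjusted p nearest to the limit of the authors' deposited table among the 9, 0.00875 beside a largest listed value of 0.00994. Genes outside that limit carry no description, so receptor genes just outside it are not analysed here.

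RPM1 of Arabidopsis recognises bacterial effectors through their action on the protein RIN4. The RPM1-like gene Pbr016327 carries an NB-ARC domain and leucine-rich repeats. It had 0.622 FPKM in the yeast library and 0.0461 FPKM in the water library. The implied reads were 53 (39.7 to 69.3) in the yeast library and 4 (1.09 to 10.2) in the water library. It was 13.9-fold higher in the yeast library, with a counting interval of 5.10 to 52.7, and stayed below 1 FPKM in both.

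The DUF506 gene Pbr000076 was the extreme on the higher side. It stood at 18.9 FPKM in the yeast library, above 86.1% of all genes, and was listed at 0 in the water library. The implied reads were 650 (601 to 702) in the yeast library and 0 (upper bound 3.69) in the water library. Against a floor of 3 reads in the water library, its level in the yeast library was 226-fold higher. That value leaves out counting error and is no bound. The authors' deposited log2 fold change was 12.38, with an adjusted p of 2.5e-13 in their table. With 0 reads in the water library, that log2 value is no measured fold, since its size is set by the small offset in the deposited values. The genes next to it by identifier were present in both libraries. Pbr000075 had 48.4 FPKM in the yeast library and 31.5 FPKM in the water library, and Pbr000077 had 22.6 FPKM in the yeast library and 13.9 FPKM in the water library.

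On the log2(FPKM + 1) scale, which shrinks differences of low genes, 3 of the 4 genes that reached 1 FPKM were higher in the yeast library by 2-fold or more and 1 was lower by 2-fold or more. Over all 22603 genes that reach 1 FPKM in either library, 3.32% were higher by that much and 3.00% were lower, and the median log2 ratio was 0.01. The log2 ratios were 4.31 for Pbr000076, 1.69 for XLOC_004778, 1.48 for XLOC_005967 and -4.28 for Pbr017074. The 5 genes below 1 FPKM lay between -0.98 and 0.66 on this scale. A gene below 1 FPKM in both libraries cannot reach 2-fold on it, whatever its fold by reads. Among these 5, Pbr011041 had the log2 ratio largest in size. In the authors' deposited table the median log2 fold change was 3.02 over the 9 genes and -3.58 over all 381 called genes. With 5 of the 9 called higher and 4 lower, the first median is the value of XLOC_004778, the smallest on the higher side. The genes were picked from those calls, so nothing is read from the difference between the medians.

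**Figure D3:**
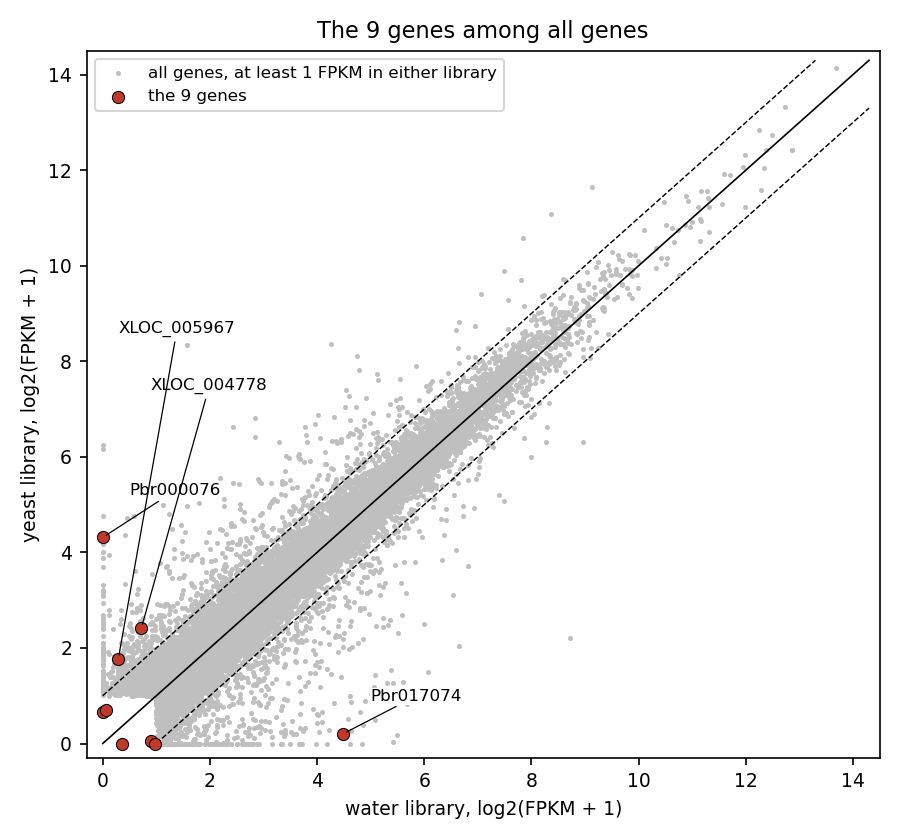
Level of each gene in the yeast library (vertical) and the water library (horizontal) as log2(FPKM + 1), with grey points for all genes of at least 1 FPKM in either library, filled circles for the 9 genes, the solid line for equal levels and dashed lines for 2-fold. Pbr000076 lies on the left edge at 4.31 and Pbr017074 far below the diagonal, while 5 of the 9 genes lie in the corner below 1 FPKM.

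Members of these families are numerous and similar in sequence, and how the authors' counting divided reads between near copies is not given in the sources used here. The FPKM and the read ratios differed for some of the 9. For XLOC_004778, 1 FPKM corresponded to 36.0 reads in the yeast library and 30.9 in the water library, whereas for Pbr016327 it was 85.3 reads in the yeast library and 86.8 in the water library. For XLOC_005967 it was 30.4 reads in the yeast library and 31.5 in the water library. For Pbr011725 it was 63.6 reads in the yeast library, where that gene had only 2 reads, and 75.7 in the water library. In whole tissue, fewer cells that express a gene and less RNA per cell cannot be told apart. Marker genes of tissues and cell types were not checked, since the genes outside the authors' list carry no description.

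The genes nearest in level pattern to the most abundant 3 of the 9 were sought among called genes with an informative description, by the distance between log2(FPKM + 1) values over the 2 libraries. For Pbr017074 it was the cytokinin hydroxylase-like gene Pbr031328, with 0.187 FPKM in the yeast library and 22.0 FPKM in the water library, at a distance of 0.06. For Pbr000076 it was the cinnamyl alcohol dehydrogenase 1 gene Pbr026289, with 19.7 FPKM in the yeast library and 0.342 FPKM in the water library, at 0.43. For XLOC_004778 it was the reticuline oxidase-like gene Pbr042044, with 4.46 FPKM in the yeast library and 0.641 FPKM in the water library, at 0.04. With only 2 libraries such closeness says no more than that both levels were alike.

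Other called genes caught by the word patterns for receptors numbered 9, with 5 higher and 4 lower in the authors' deposited table, beside 143 higher and 238 lower of all 381 called genes. By the deposited log2 value, which for this gene rests on the offset, the highest was XLOC_027451. Its hit is the leucine-rich repeat kinase At4g08850, but it has no Pfam domain of its own. It was listed at 3.29 FPKM in the yeast library and at 0 in the water library, with 42 implied reads in the yeast library and 0 in the water library. It was followed by XLOC_005966, described as a tyrosine-sulfated glycopeptide receptor 1-like gene, with 1.83 FPKM in the yeast library and 0.114 FPKM in the water library. XLOC_005966 stands next to XLOC_005967 by identifier, and both were higher. The L-type lectin gene Pbr038317, whose only domain is the lectin, had 4.51 FPKM in the yeast library and 0.403 FPKM in the water library. The remaining 2 higher genes encode secreted cysteine-rich repeat proteins and not receptors, Pbr014915 with 86.7 FPKM in the yeast library and 12.9 FPKM in the water library and Pbr024171 with 101 FPKM in the yeast library and 14.6 FPKM in the water library.

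The lower ones were a pair of L-type lectin kinase IX.1-like genes and a pair of genes whose Swiss-Prot hit is the leucine-rich repeat kinase At1g53430. Of the second pair, Pbr036707 has leucine-rich repeats and a kinase domain in its Pfam entries, whereas Pbr017632 has neither. The lowest by the deposited log2 value were Pbr030215 and Pbr017632, both listed at 0 in the yeast library. In the water library Pbr030215 had 0.298 FPKM and Pbr017632 had 0.342 FPKM. Both had 0 implied reads in the yeast library, so their place in this order rests on the offset in the deposited values. The most abundant was Pbr036707, with 0.258 FPKM in the yeast library and 6.75 FPKM in the water library. Pbr036707 had 45 implied reads in the yeast library and 1277 in the water library, the most reads of any kinase-domain gene that the authors called.

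Across all 381 called genes, 11 had a kinase domain in their Pfam entries, 1 higher and 10 lower in the yeast library. Outside the 9 genes there were 7, of which 0 were higher and 7 lower, a count made after the values were seen. All called genes outside the 9 were 138 higher and 234 lower. Besides the receptor kinases these 7 included the OXI1-like gene Pbr031383, a kinase of the oxidative burst response in Arabidopsis, with 0.183 FPKM in the yeast library and 5.52 FPKM in the water library. They also included the phototropin-1 gene Pbr023435, a blue light receptor, listed at 0 in the yeast library and at 0.0930 FPKM in the water library.

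Genes known to act below receptors were counted among the called genes alone, since the others carry no description, and each small count stands beside the 143 higher and 238 lower of all 381 called genes. The cytoplasmic kinase patterns caught 2 genes, 0 higher and 2 lower. Both are among the 7 kinase-domain genes above. They were Pbr035710, described as mitogen-activated protein kinase kinase kinase 3-like (-4.64 as log2 fold change, from the authors' deposited table) and the calcium-dependent protein kinase 26-like gene Pbr001322 (-3.19). The calcium and oxidative burst patterns caught 5 genes, 0 higher and 5 lower, from CML44 (Pbr027922, -9.94, with 0 implied reads in the yeast library) and the calmodulin-binding IQ-DOMAIN 1-like gene (Pbr032004, -8.26, also with 0) to CML42-like genes (Pbr013669, -4.03, and Pbr028492, -3.33). With patterns matched as whole words, a choice made after seeing the data, only the IQ-DOMAIN gene of these 5 was left, since CML names run on into a number. The phosphatase 2C patterns caught 2 genes, 0 higher and 2 lower (Pbr028950, -4.10, and Pbr010918, -4.00).

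The patterns for regulators of receptors caught 3 genes, 0 higher and 3 lower, again beside 143 higher and 238 lower of all called genes. All 3 are U-box ubiquitin ligases of the PUB23 and PUB24 type, which in Arabidopsis dampen signalling from pattern receptors. Pbr035713 had 0.536 FPKM in the yeast library and 15.0 FPKM in the water library. XLOC_004507 had 0.411 FPKM in the yeast library and 3.76 FPKM in the water library. Pbr028069 was listed at 0 in the yeast library and at 2.16 FPKM in the water library, with 33 implied reads in the yeast library and 276 in the water library, so that it had reads where it is listed at 0. No called gene matched the patterns for co-receptors and known pattern receptors such as BAK1, FLS2 or CERK1. The patterns for intracellular resistance proteins caught only 3 other genes, through the letters RGA inside other words, and none of them is a resistance gene.

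**Figure D4:**
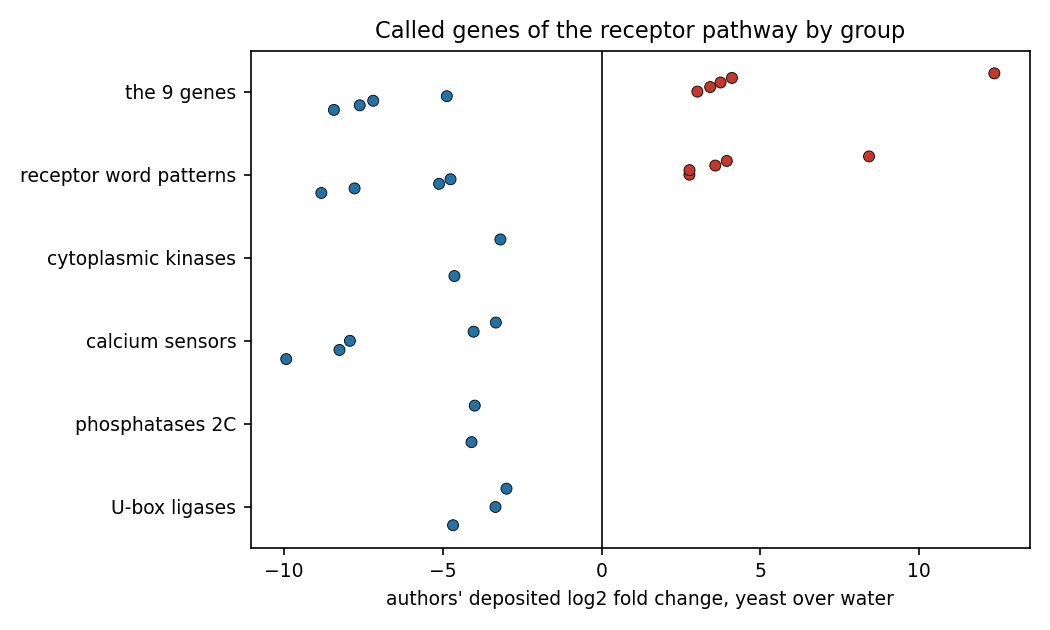
Authors' deposited log2 fold change (yeast over water) of each called gene, by group, for the 9 genes and for the groups of genes matched by description, with 1 point per gene and colour by sign. The 9 genes and the 9 others caught by the receptor word patterns, 2 of which encode secreted proteins and not receptors, lie on both sides of 0, and the 12 genes of the other 4 groups all lie below 0.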

How the data were processed

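Illumina TruSeq libraries were built from total RNA of wound tissue, per the labels' protocols. The authors deposited FPKM values for 45022 genes in both libraries and, for 381 called genes, log2 fold changes and adjusted p-values (FDR), per the file headers, with protein descriptions. The submitters' processing notes name Bowtie 0.12.2. The counter, genome build, annotation and comparison tool are unnamed (not given in the sources used here). Table columns were assigned through the sample titles.

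With 1 library per group no test was made. FPKM ratios were taken after adding a pseudocount of 1, as log2((yeast + 1)/(water + 1)), with a 2-fold size rule for genes that reach 1 FPKM in either library. Whole reads were recovered from the deposited log2 values with a tolerance of 0.0001 read, taking the smallest pair. Of 381 called genes, 241 gave a pair with at most 20 reads in the lower library. A second estimate of the size ratio came from 2985 genes with values above 0 but under 0.5 FPKM in each library. Their commonest FPKM ratio was 1.05, shared by only 56 of them. Fold intervals are exact (Clopper-Pearson) 95% binomial intervals and cover counting error only. Both steps were tested on simulated data.

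The 9 genes and the word patterns were chosen with earlier results of these data known. All 9 are named. Of each pattern list the 2 highest and 2 lowest by the deposited log2 value were named, and others after their values were seen. The list for intracellular resistance proteins was an exception, since none of the genes it caught is a resistance gene. Patterns were matched in the descriptions of called genes, with organism names removed. Sequences and coordinates are not given, since the reference gene table does not carry these identifiers. Python 3.11.15, pandas 2.3.3 and scipy 1.17.1 were used.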

Additional observations from a re-analysis of the deposited data

How the results depend on the processing

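The direction of all 9 genes was the same with a pseudocount of 0.1 or 0.5 FPKM, equal FPKM sums or scaling by median ratio. For the 6 genes with reads in both libraries it was also the same by reads. This agreement is no check of the direction. A pseudocount added to both libraries cannot reverse it. The scale factors, 1.08 for equal sums and 1.00 for the median ratio, were small beside these differences. The reads were derived from the deposited values by which the genes were chosen. The size of the ratios moved with the pseudocount: that of Pbr017074 was -6.42 with a pseudocount of 0.1. The counts of 3 genes at least 2-fold higher and 1 lower were kept under each pseudocount and scaling and without the filter. Without the filter they could not change, since with a pseudocount of 1 a gene below 1 FPKM in both libraries cannot reach 2-fold. With a minimum of 5 FPKM, 1 gene was higher and 1 lower. With a pseudocount of 0.1 and no filter, chosen after seeing the data, 5 were higher and 4 lower. Over all genes, 1347 were higher and 1100 lower with a pseudocount of 0.1, against 750 and 678 with a pseudocount of 1, and 470 and 382 with a minimum of 5 FPKM. The pattern lists together held 7 genes called higher and 17 lower, beside 143 higher and 238 lower of all 381 called genes. They include 3 genes caught only through the letters RGA inside other words, 2 higher and 1 lower. At 1 FPKM in either library 7 higher and 11 lower were left. Above 0 in both libraries 5 higher and 10 lower were left. The filter at 1 FPKM thus removed genes of the lower side only, and the lower side stayed the larger with each filter. The filter above 0 also removed genes that reach 1 FPKM, such as Pbr027922 with 6.50 FPKM in the water library. The lists hold 5 higher and 12 lower with patterns matched as whole words. Equal FPKM sums put the median of all genes at -0.09. Counting error limits the genes with 0 to 4 reads in a library most. No paired analysis was possible because each group has 1 library.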

Other observations

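The FPKM table and the implied reads did not treat zeros alike. Of 125 called genes listed at 0 FPKM in at least 1 library, 39 had implied reads in a library where they are listed at 0, with Pbr005030 among the 9 genes and the PUB23-like gene Pbr028069 outside them.

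Of the 16 genes next to the 9 by identifier that the table holds, 6 were listed at 0 in both libraries and 10 reached 1 FPKM in either. The authors called 2 of them, both higher, beside 0.318% of all 45022 genes called higher and 0.529% called lower. These 2 were XLOC_005966 beside XLOC_005967, and XLOC_004777 beside XLOC_004778. XLOC_004777 is described as an uncharacterized protein. It had 2.75 FPKM in the yeast library and was listed at 0 in the water library. The neighbours were looked at because the 9 genes had been chosen from those calls, so nothing is read from this count. Neighbours by identifier were not checked for their distance in the genome.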
